A study of Mus musculus with 6 samples.

Results

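Transcripts of the cornified envelope and of squamous differentiation were followed in obstructed mouse ureters of 2 Col17a1 genotypes. The set was fixed by gene name on the array. It took every Sprr and Lce gene with a number, together with Ivl, Lor, Flg, Sbsn, Tgm1, Tgm3, Krtdap, Cnfn, Evpl, Ppl, Cdsn, Scel and Dsg1a. This gave 50 genes on 62 probes, of 36610 genes and other named features on 56605 probes. The rule uses the gene names of the array files, and the set was proposed with earlier results of these data known.

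The cornified envelope is a layer of cross-linked protein that replaces the plasma membrane of terminally differentiating keratinocytes. Plakins line the membrane, involucrin, loricrin and small proline-rich (SPRR) proteins are laid onto them, and transglutaminases join the parts. Many of the genes lie side by side in the epidermal differentiation complex. The urothelium that lines a ureter is not cornified, but urothelium can take on squamous features under chronic injury, and Sprr genes are known to respond to stress in simple and transitional epithelia.

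All 6 samples came from C57BL/6N mice aged 2 months, and the ureters were taken 4 days after unilateral ureteral obstruction, in which the ureter of 1 side is closed so that urine cannot drain. Unobstructed ureters were not analysed here. The labels place 3 samples in the Col17a1-WT group and 3 in the Col17a1-KO group, all male except KO replicate 3. They do not say which part of Col17a1 was altered, in which cells, or whether ureters were pooled, so p-values measure the spread between these samples, whatever its source. Each sample was read on 1 array in 1 colour (Cy3), and values are log2 signals relative to the 75th percentile of the array.

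The 75th percentile of the signal lay between 143.7 and 164.9, and each array had 35482 to 36567 probes well above background, by the scanner software's own mark for each spot, and 0 saturated spots. Col17a1, which encodes collagen XVII of the hemidesmosome, had values of -2.33, -0.80 and -0.39 in WT and of 0.50, 0.53 and 0.40 in the samples labelled KO. The gene was thus higher where the label names its loss. For this reason the text speaks of KO-labelled ureters, and directions rest on the labels alone. Among 22260 genes tested with limma, a linear model that shares the estimate of spread across genes, none had an adjusted p under 0.05 (0%), and 969 higher and 1048 lower genes had an unadjusted p under 0.05. WT replicate 2 stood apart in kidney transcripts, with a value of 1.74 for the list of tubule and podocyte markers against -0.48 to -0.22 on the other 5 arrays (mean log2 deviation from the 6-array mean). The uroplakins Upk1a, Upk1b, Upk2 and Upk3a, which define urothelium, were well above background on all 6 arrays. Of 10 markers of hair and skin, the 7 keratin and keratin-associated genes were well above background on no array, and Lgr5, Tyr and Dct on all 6.

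The 3 squamous markers given with the set, Ivl, Sprr1a and Tgm1, were each well above background on all 6 arrays. Of the 50 genes, 24 were well above background on all 6 arrays, 4 on some arrays and 22 on none. For comparison, 59.0% of all probes were well above background on every array and 31.0% on none. The families differed in how much of them could be measured. Of the 16 Sprr genes 8 were well above background on all arrays and 3 (Sprr2d, Sprr2e and Sprr2h) on some, while Sprr1b, Sprr2a1, Sprr2i, Sprr3 and Sprr4 were at background throughout. Of the 21 Lce (late cornified envelope) genes only Lce1a2, Lce1j, Lce1l and Lce3d were well above background on all arrays. Lce1c was well above background on KO-labelled replicates 1 and 2, and the other 16 Lce genes on none: Lce1a1, Lce1b, Lce1d to Lce1i, Lce1k, Lce1m, Lce3a, Lce3b, Lce3c, Lce3e, Lce3f and Lce6a. Ivl, Lor and Flg were all measured. Outside the complex 9 of 10 genes were measured, the exception being Dsg1a, a desmosomal cadherin of the upper epidermis, which was at background on every array.

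In all, 26 members passed the filter, which asked for a probe well above background on all 3 arrays of either group. Mean values were higher in the KO-labelled group for 19 of the 26 and lower for 7, where 49.8% of all genes tested were higher. No member had an adjusted p under 0.05 in limma, with adjusted p-values between 0.398 and 0.995. At an unadjusted p under 0.05 there were 8 higher members (Sprr1a, Sprr2a3, Sprr2b, Sprr2g, Sprr2j-ps, Sprr2k, Ppl and Lor) and 0 lower ones, beside 4.35% and 4.71% of all genes. With array weights in the same model 5 members passed, beside 2.24% of all genes. The groups did not overlap for 7 members, all higher in the KO-labelled group and all but Ppl in the Sprr family. The same held for 7.28% of all genes, and 8.13% were lower without overlap. The median log2 difference was 0.25 over the 26 members and -0.00087 over all genes tested. When single arrays were left out the member median ran from 0.17 (without KO-labelled replicate 2) to 0.40, 0.44 and 0.46 (without WT replicate 2, WT replicate 3 and KO-labelled replicate 1). It was 0.10 with normexp background correction and 0.11 with array weights. Without the filter on dim probes it was 0.09, over a larger set that took in the members at background.

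**Figure D1:**
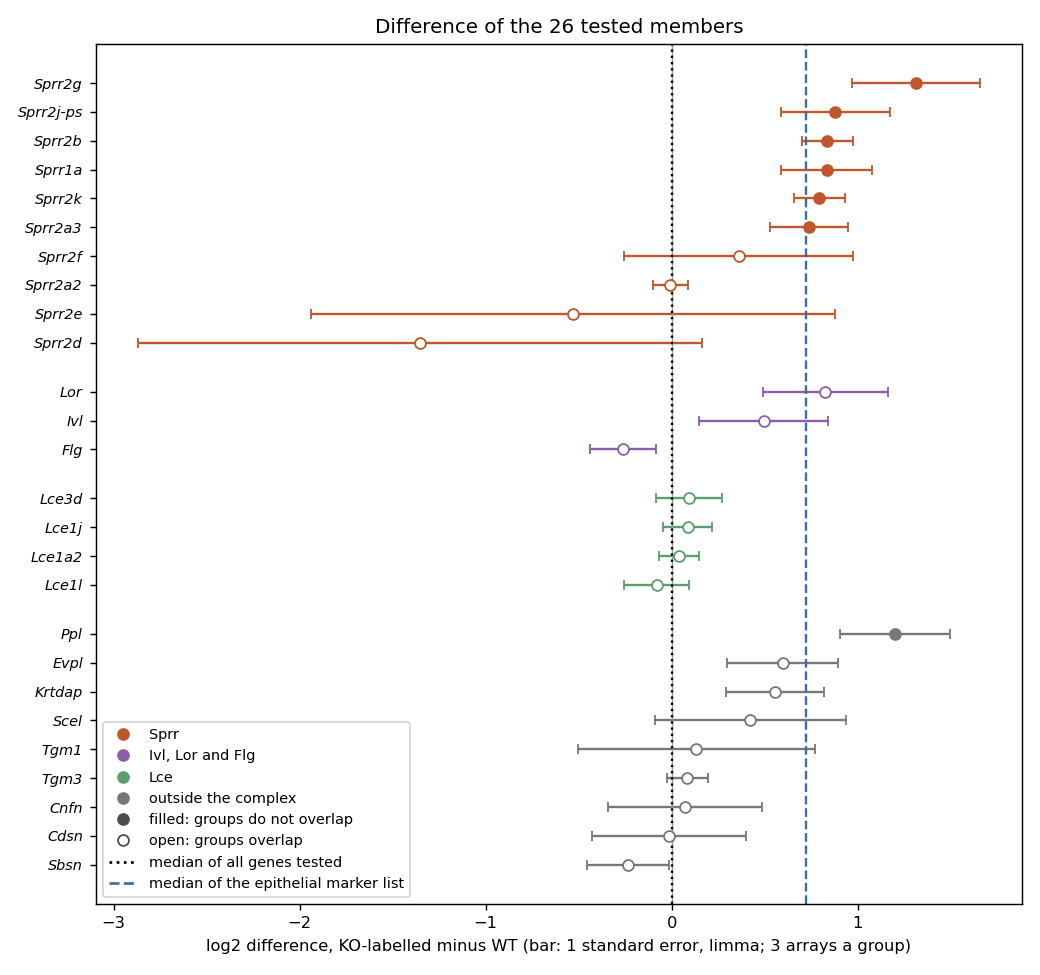
Log2 difference (KO-labelled minus WT, horizontal axis) of the 26 tested members with 1 standard error from limma, 3 arrays a group, grouped by family. Filled points, 6 Sprr genes and Ppl, are members whose groups did not overlap, the dotted line is the median of all genes tested and the dashed line the median of the epithelial marker list, 0.72.

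The Sprr genes encode short, proline-rich proteins that transglutaminases join into the envelope as cross-bridges. Their median log2 difference was 0.77 over 10 tested genes, and 6 of the 10 were higher in every KO-labelled array than in every WT array. Sprr1a, known to be induced in injured epithelia, had log2 values of 6.70, 6.05 and 6.62 in WT replicates 1, 2 and 3 and of 7.46, 7.52 and 6.89 in KO-labelled replicates 1, 2 and 3. KO-labelled replicates 1 and 2 were highest, and replicate 3 lay just above the WT arrays. The groups differed by 0.83 ± 0.25 (SE), or 1.78-fold (limma, adjusted p = 0.458). In bulk tissue, more cells of a type and more RNA per cell cannot be told apart, which holds for every difference given here.

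Sprr2b had values of 3.06, 3.24 and 3.26 in WT and of 4.22, 4.03 and 3.83 in KO-labelled ureters. Its groups were separated by more than the spread within either, and its difference of 0.84 ± 0.14 (SE) had the lowest p-value of all members (limma, adjusted p = 0.398). Sprr2k had values of 2.11, 2.39 and 2.32 in WT and of 3.18, 3.14 and 2.87 in KO-labelled ureters. Its difference of 0.79 ± 0.14 (SE) was close to that of Sprr2b, and its adjusted p in limma was the same, 0.398.

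The agreement of Sprr2b and Sprr2k cannot be read as that of 2 separate measurements, because their probes share sequence. The stretches below are 30-base parts of the 60-base probes around the longest run shared with another Sprr probe, which is in capitals. They are shown because a long shared run may let a probe take up the transcript of the other gene. The runs differ in length, from 9 bases at Sprr1a to 28 at Sprr2b and Sprr2k. Probes were compared with member probes only, not with transcripts, so the run lengths do not show whether this happened.

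Sprr2b probe, chr3:92121452-92121481 (+ strand, mm9): cCTCCTCCAAAGTGCCCTGAGCCTTGTCCt
Sprr2k probe, chr3:92237338-92237367 (+ strand, mm9): ttCTCCTCCAAAGTGCCCTGAGCCTTGTCC
Sprr2j-ps probe, chr3:92222836-92222865 (+ strand, mm9): ccccGAGCCTTGTCCTCCtgcaaagtgccc
Sprr2f probe, chr3:92170279-92170308 (+ strand, mm9): cagtatgACATTTTTCAAATCTctctgtca
Sprr2h probe, chr3:92191160-92191189 (+ strand, mm9): ACATTTTTCAAATCTttctgacattttgcc
Sprr2d probe, chr3:92144751-92144780 (+ strand, mm9): tgtgttgtcagcatgGTTTCATTTCCTGAA
Sprr2e probe, chr3:92157318-92157347 (+ strand, mm9): ttgtgttgtcattgtTGTTTCATTTCCTGA
Sprr2a3 probe, chr3:92093100-92093129 (+ strand, mm9): ctgctGTTTCATTTCCTGAAataaaaaagg
Sprr1a probe, chr3:92287985-92288014 (- strand, mm9): gctCCTGAGCCTcttaacattgcccaaagt

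The Sprr2b and Sprr2k probes had a run of 28 bases in common, in the same order and on the same strand. The Sprr2j-ps probe shared 14 bases with that of Sprr2b, the Sprr2f probe and the dimmer Sprr2h probe shared 15, and the Sprr2d and Sprr2e probes each shared 15 with the brighter Sprr2a3 probe. The Sprr1a probe had at most 9 bases in common with any other member probe. Whether shared runs moved signal between genes was not tested.

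Sprr2a3 had values of 6.64, 6.14 and 6.42 in WT and of 7.49, 7.08 and 6.84 in KO-labelled ureters. The lowest KO-labelled array, replicate 3, was above the highest WT array, replicate 1, and the difference was 0.74 ± 0.21 (SE; limma, adjusted p = 0.454). The other Sprr2a3 probe had values of -2.13, -2.96 and -2.71 against -1.24, -1.46 and -2.17, a difference of 0.98 in the same direction with WT replicate 1 just above KO-labelled replicate 3. Sprr2a2 showed none of this. Its values were 6.82, 6.91 and 6.81 in WT and 6.87, 6.85 and 6.80 in KO-labelled ureters, a difference of -0.01 ± 0.09. The 6 arrays spanned 0.11 log2 units at this probe, and 0.499% of all genes tested had a smaller range. Sprr2a1, Sprr2a2 and Sprr2a3 are closely related copies, and values of single copies are uncertain. The RefSeq promoter windows of Sprr2a1 and Sprr2a2 agreed at 300 of 300 bases.

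Sprr2g, whose probe is assigned to a non-coding RefSeq transcript, had the largest difference among the members that were higher in the KO-labelled group. Its values were -0.58, 0.49 and 0.54 in WT and 1.09, 1.78 and 1.53 in KO-labelled ureters, with replicate 1 the lowest of both groups. The difference was 1.32 ± 0.34 (SE), or 2.49-fold (limma, adjusted p = 0.445), and 0.95 without WT replicate 1. Sprr2j-ps, annotated as a pseudogene, had values of 0.39, 1.45 and 1.26 in WT and of 1.73, 2.17 and 1.85 in KO-labelled ureters. The groups did not overlap and differed by 0.88 ± 0.29 (SE; limma, adjusted p = 0.488), or by 0.56 without WT replicate 1.

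In Sprr2d, Sprr2e and Sprr2f, which lie next to each other, and in Sprr2h replicate 1 was the lowest of both groups too, but the groups overlapped. Sprr2f had values of 2.77, 4.67 and 4.20 in WT and of 3.25, 4.87 and 4.61 in KO-labelled ureters. Replicate 1 was lowest in both groups, and the difference of 0.36 ± 0.61 (SE) was smaller than the spread within a group (limma, adjusted p = 0.887). Sprr2d had values of -3.76, -1.94 and -2.58 in WT and of -7.48, -1.25 and -3.61 in KO-labelled ureters, and Sprr2e had values of -3.35, -1.21 and -1.79 and of -5.91, -0.69 and -1.34. KO-labelled replicate 1 was not well above background at either probe, so that 2 of 3 KO-labelled arrays measured these genes, and both passed the filter through the WT group. Their differences of -1.36 ± 1.52 and -0.53 ± 1.41 (SE) turned to 0.33 and 1.10 without KO-labelled replicate 1. Sprr2h did not pass the filter. Its brighter probe was well above background on replicates 2 and 3 of both groups, with values of -3.86, -4.27, -3.20 and -3.72, and read -6.18 on WT replicate 1 and -4.98 on KO-labelled replicate 1. WT replicate 1 was the lowest WT array for 7 of the 10 tested Sprr genes, and KO-labelled replicate 2 was the lowest of its group for 0 and the highest for 6.

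**Figure D2:**
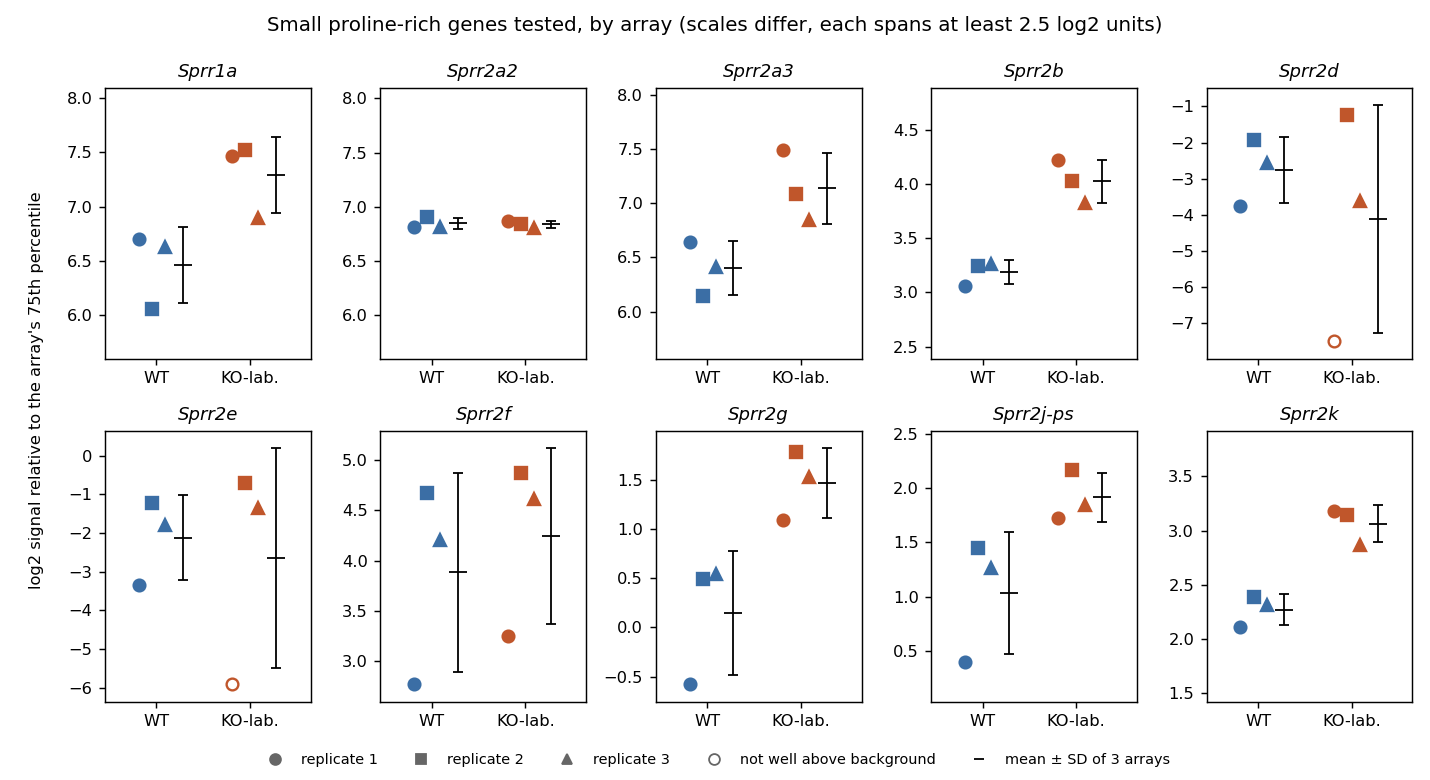
Log2 signal of the 10 tested Sprr genes on each array, with the mean and SD of 3 arrays a group; vertical scales differ between panels, and open points were not well above background. The groups did not overlap for Sprr1a, Sprr2a3, Sprr2b, Sprr2g, Sprr2j-ps and Sprr2k, Sprr2a2 was flat, and replicate 1 was lowest in both groups for Sprr2d, Sprr2e, Sprr2f, Sprr2g and Sprr2j-ps.

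RefSeq promoter windows were at hand for 44 of the 50 members, in 46 windows. The windows below are the 200 bases before the RefSeq start of Sprr1a, Sprr2b and Sprr2k, whose groups did not overlap, and of Sprr2d and Sprr2f, whose groups did. They show that these Sprr2 genes of both kinds share an arrangement of short motifs, which Sprr1a shares in part. Sprr2a3, whose groups did not overlap either, and Sprr2a1 and Sprr2a2 hold none of the 3 motifs in their windows, which are not shown. This absence holds only for the bases before the RefSeq start used, and sequence beyond that start was not searched. Whether the starts of the Sprr2a genes correspond to those of the other Sprr2 genes was not tested. Sprr2g and Sprr2j-ps had no window at hand. Capitals mark the AP-1 motif (TGANTCA, both strands), the octamer motif (ATTTGCAT, both strands) and the TATA motif (TATAAA, gene strand). No motif overlaps another here.

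Sprr1a, chr3:92485882-92486081 (- strand, GRCm38.p6): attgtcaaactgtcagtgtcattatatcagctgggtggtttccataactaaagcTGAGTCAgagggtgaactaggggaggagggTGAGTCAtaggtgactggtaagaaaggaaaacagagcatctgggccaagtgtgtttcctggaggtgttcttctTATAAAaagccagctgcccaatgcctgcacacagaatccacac
Sprr2b, chr3:92316505-92316704 (+ strand, GRCm38.p6): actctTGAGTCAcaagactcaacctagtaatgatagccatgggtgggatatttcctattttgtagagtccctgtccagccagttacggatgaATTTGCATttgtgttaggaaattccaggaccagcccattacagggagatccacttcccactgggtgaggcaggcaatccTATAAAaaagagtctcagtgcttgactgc
Sprr2k, chr3:92432382-92432581 (+ strand, GRCm38.p6): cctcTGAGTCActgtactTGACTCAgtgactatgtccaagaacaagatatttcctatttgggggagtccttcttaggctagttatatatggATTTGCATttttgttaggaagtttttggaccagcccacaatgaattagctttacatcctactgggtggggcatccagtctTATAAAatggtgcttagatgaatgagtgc
Sprr2d, chr3:92338940-92339139 (+ strand, GRCm38.p6): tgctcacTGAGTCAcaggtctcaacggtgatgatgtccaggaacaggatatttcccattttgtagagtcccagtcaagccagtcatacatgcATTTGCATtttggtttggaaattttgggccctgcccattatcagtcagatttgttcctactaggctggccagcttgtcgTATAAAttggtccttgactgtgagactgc
Sprr2f, chr3:92364987-92365186 (+ strand, GRCm38.p6): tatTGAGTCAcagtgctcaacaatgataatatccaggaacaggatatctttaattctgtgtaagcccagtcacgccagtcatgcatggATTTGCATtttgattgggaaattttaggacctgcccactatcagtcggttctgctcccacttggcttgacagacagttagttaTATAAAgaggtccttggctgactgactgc

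Over the 250 bases before the start, the AP-1 motif was found in 9 of 14 Sprr windows, 0 of 20 Lce windows and 6 of 12 windows of other members (Lor, Ivl, Flg, Sbsn, Krtdap and Scel). Among all 32851 RefSeq promoters 6.75% held it. The octamer was found in 7 of 14 Sprr windows, those of Sprr2b, Sprr2d, Sprr2e, Sprr2f, Sprr2h, Sprr2i and Sprr2k, and in 0 of 20 Lce windows, against 1.6% of all promoters. In these 7 genes it began between positions -112 and -108 from the start, and the TATA motif at position -29. The TATA motif was found in 10 of 14 Sprr windows, 2 of 20 Lce windows and 7.59% of all promoters. The CCACCC motif of KLF factors (both strands) was found in 5 of 14 Sprr windows, 1 of 20 Lce windows, 7 of 12 windows of other members and 28.1% of all promoters, and the GRHL motif AACNNGTT (both strands) in 0 windows of members and 3.64% of all promoters. The octamer was added to the search after the windows had been seen. Sprr2d and Sprr2f carried the same 3 motifs at like positions as Sprr2b and Sprr2k, and Sprr2i carried them too and was at background on all arrays. The Sprr2d and Sprr2e windows agreed at 264 of 300 bases.

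Ivl, Lor and Flg are the members in the complex outside the Sprr and Lce families, and they encode structural proteins. Ivl, which encodes involucrin, an early scaffold of the envelope, had values of 0.13, 0.80 and 1.43 in WT and of 1.17, 1.64 and 1.04 in KO-labelled ureters. The groups overlapped, with WT replicate 1 lowest, and the difference was 0.49 ± 0.35 (SE; limma, adjusted p = 0.705). It was 0.16 without that array and 0.82 without WT replicate 3. Lor, which encodes loricrin, the bulk protein of the mature epidermal envelope, had values of -2.94, -3.70 and -2.90 in WT and of -2.06, -2.03 and -2.98 in KO-labelled ureters. KO-labelled replicates 1 and 2 were above all WT arrays and replicate 3 was not. The difference was 0.83 ± 0.34 (SE; limma, unadjusted p = 0.0475, adjusted p = 0.544), and 0.21 with normexp background correction. Flg, which encodes the precursor of filaggrin, an aggregator of keratin filaments, was 0.26 lower in mean, with means of -3.98 ± 0.33 (SD) for the 3 WT arrays and -4.24 ± 0.07 (SD) for the 3 KO-labelled ones (limma, adjusted p = 0.697). Its other probe was at background on every array.

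The Lce genes encode proteins added late, in the uppermost epidermal layers. The 4 that were tested had differences of 0.04 ± 0.11 for Lce1a2, 0.09 ± 0.13 for Lce1j, -0.08 ± 0.18 for Lce1l and 0.09 ± 0.18 for Lce3d (log2 and SE; limma, adjusted p from 0.871 to 0.936). The groups overlapped for each of them. Over the 6 arrays Lce1a2 spanned 0.22 log2 units, Lce1j 0.38, Lce1l 0.55 and Lce3d 0.63, where the median range of all genes was 0.57. The Lce3d probe shared a run of 25 bases with the Lce3b probe, which was at background. At Lce1c the 3 WT arrays read -5.27 and the KO-labelled arrays -4.99, -4.64 and -5.04, and no WT array was well above background.

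**Figure D3:**
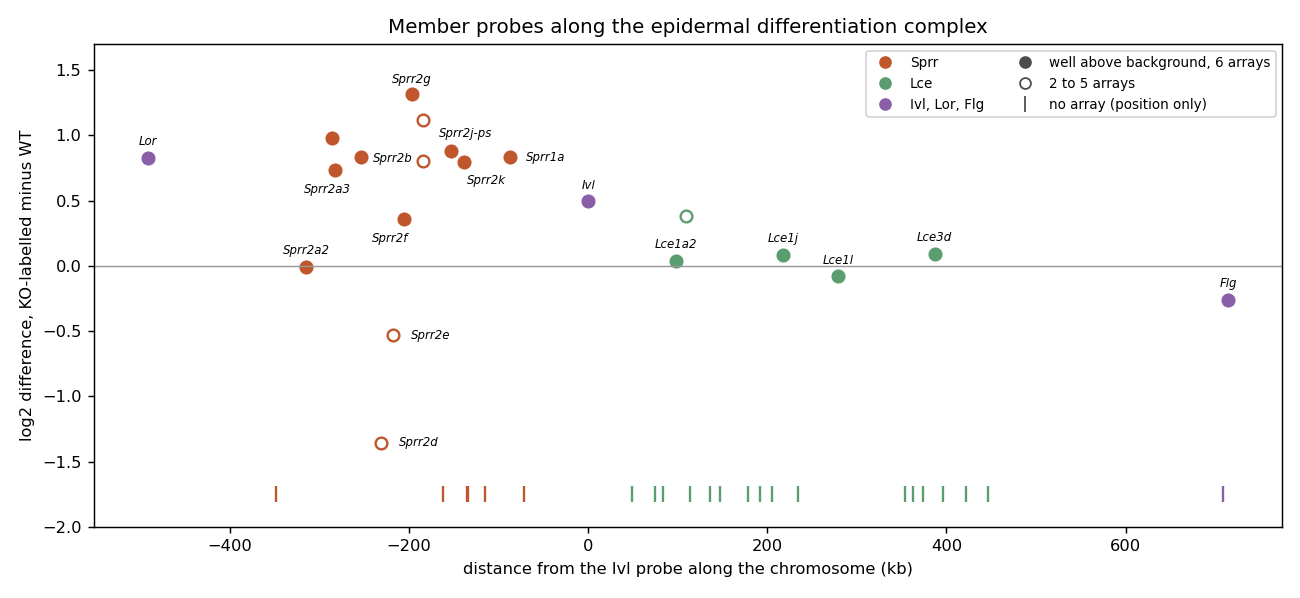
Log2 difference (KO-labelled minus WT) of each member probe in the epidermal differentiation complex by its distance in kb from the Ivl probe. Sprr probes lie to the left of Ivl and most measured ones are above 0, the measured Lce probes lie to the right and near 0, open points are probes well above background on 2 to 5 arrays, and ticks mark probes at background on all arrays, whose differences are not shown.

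The complex members, 40 of the 50, lay on chromosome 3 between positions 91884206 and 93090246 (mm9), a span of 1206 kb. Lor was at one end and Flg at the other. The Sprr probes covered 277 kb on one side of Ivl and the Lce probes 398 kb on the other. The 6 Sprr genes without overlap between groups did not form an uninterrupted block. Sprr2d, Sprr2e and Sprr2f lay between Sprr2b and Sprr2g, and Sprr1b and Sprr3, both at background, lay between Sprr2k and Sprr1a.

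Plakins anchor the envelope to desmosomes and keratin filaments. Ppl and Evpl encode the 2 plakins among the members. Ppl (periplakin) had values of 0.62, -0.30 and 0.27 in WT and of 1.66, 1.60 and 0.94 in KO-labelled ureters. The groups did not overlap, and the difference was 1.20 ± 0.29 (SE), or 2.30-fold (limma, adjusted p = 0.437). A second, dimmer Ppl probe differed by 0.31 and overlapped. Evpl (envoplakin, its partner) had values of 3.11, 2.02 and 2.44 in WT and of 3.37, 3.18 and 2.82 in KO-labelled ureters. WT replicate 1 was above KO-labelled replicate 3, and the difference was 0.60 ± 0.30 (SE; limma, adjusted p = 0.604), or 0.35 without WT replicate 2. Scel, which encodes sciellin, another precursor of the envelope, was 0.42 ± 0.51 higher in mean, which rested on KO-labelled replicate 2 at -2.06; the other 5 arrays lay between -4.07 and -3.31, leaving that array out gave -0.17.

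The transglutaminases cross-link these proteins. Tgm1, the membrane-bound enzyme of keratinocytes, had values of -2.91, -0.68 and -0.70 in WT and of -1.57, -1.56 and -0.75 in KO-labelled ureters. WT replicate 1 was far below the others, and the difference of 0.13 ± 0.64 (SE; limma, adjusted p = 0.967) became -0.61 without it. Tgm3 spanned 0.26 log2 units over the 6 arrays and differed by 0.08 ± 0.11 (SE; limma, adjusted p = 0.841). Its other probe was well above background on WT replicate 2 and KO-labelled replicate 3 only.

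The remaining members are secreted or surface proteins of differentiating keratinocytes. Krtdap, a small secreted protein of early differentiation, had values of -0.50, -1.21 and -1.38 in WT and of -0.26, -0.42 and -0.76 in KO-labelled ureters. WT replicate 1 was above KO-labelled replicate 3, the difference was 0.55 ± 0.26 (SE; limma, adjusted p = 0.586), and its 3 probes gave differences from 0.55 to 0.77. Cdsn, which encodes corneodesmosin, an adhesive protein of the cornified layer, differed by -0.01 ± 0.42, and Cnfn, which encodes cornifelin of the envelope, by 0.07 ± 0.41 (limma, adjusted p = 0.995 and 0.972). Sbsn, which encodes suprabasin, differed by -0.24 ± 0.22 (limma, adjusted p = 0.782), and its other 2 probes by 0.14 and 0.20, in the other direction.

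**Figure D4:**
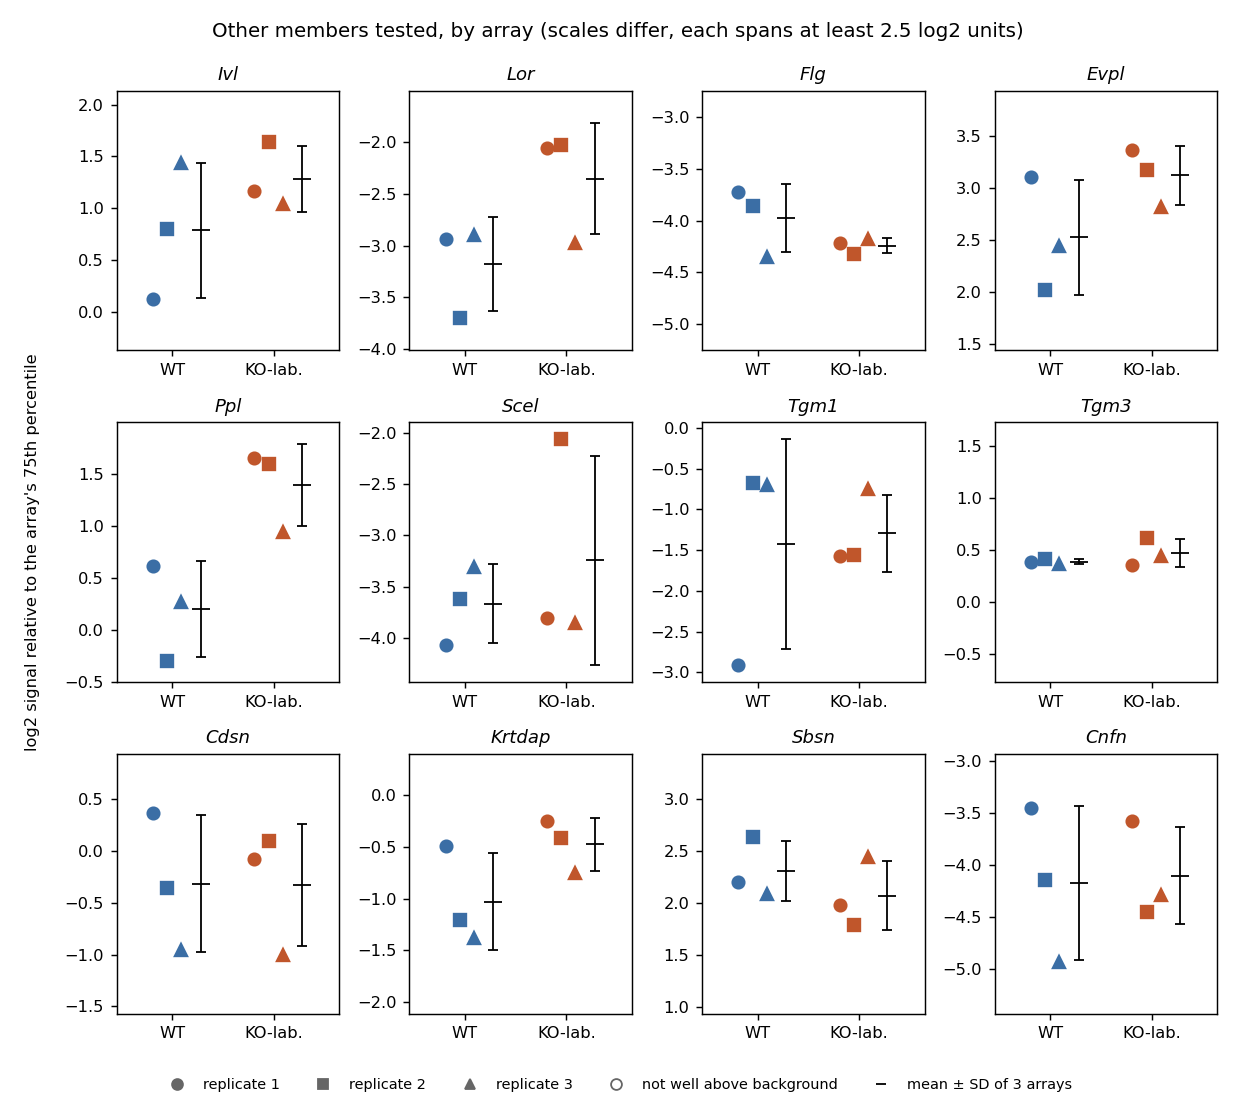
Log2 signal of the 12 tested members outside the Sprr and Lce families on each array, with the mean and SD of 3 arrays a group; vertical scales differ between panels. The groups did not overlap for Ppl only, WT replicate 1 was lowest for Ivl and Tgm1, and KO-labelled replicate 2 stood alone in Scel.

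Markers of epithelial cells at large moved with these differences. All 10 genes of the epithelial list (Epcam, Cdh1, Krt8, Krt18, Cldn4, Cldn7, Esrp1, Esrp2, Ap1m2 and Rab25) had higher means in the KO-labelled group, none with an adjusted p under 0.05 in limma and 6 with an unadjusted p under 0.05, and their median difference was 0.72. Of all genes tested, 4.35% were higher at an unadjusted p under 0.05 in limma. The list value, the mean log2 deviation of its genes from their 6-array means, was -0.48, -0.54 and -0.07 in WT and 0.43, 0.61 and 0.05 in KO-labelled ureters. The lists of superficial and basal urothelium had medians of 0.88 and 0.58, with 7 of 7 and 5 of 6 genes higher. The differences of Sprr1a, Sprr2a3, Sprr2b and Sprr2k lay close to that of the epithelial list. After the list value of the same array was subtracted, these 4 differed by 0.11, 0.01, 0.11 and 0.07, Sprr2j-ps by 0.16, Lor by 0.10, Evpl by -0.13 and Ivl by -0.23. Sprr2g and Ppl differed by 0.59 and 0.48. On this scale 8 of 26 members were higher and 18 lower, the median was -0.48 where that of all genes was -0.72, and the groups overlapped for all 8 higher ones (0.126% of all genes were higher without overlap). The groups did not overlap, in the lower direction, for Lce1j, Lce1l, Lce3d, Sprr2a2 and Tgm3, as for 62.8% of all genes. The part of epithelial content in the member differences was not tested beyond these values.

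**Figure D5:**
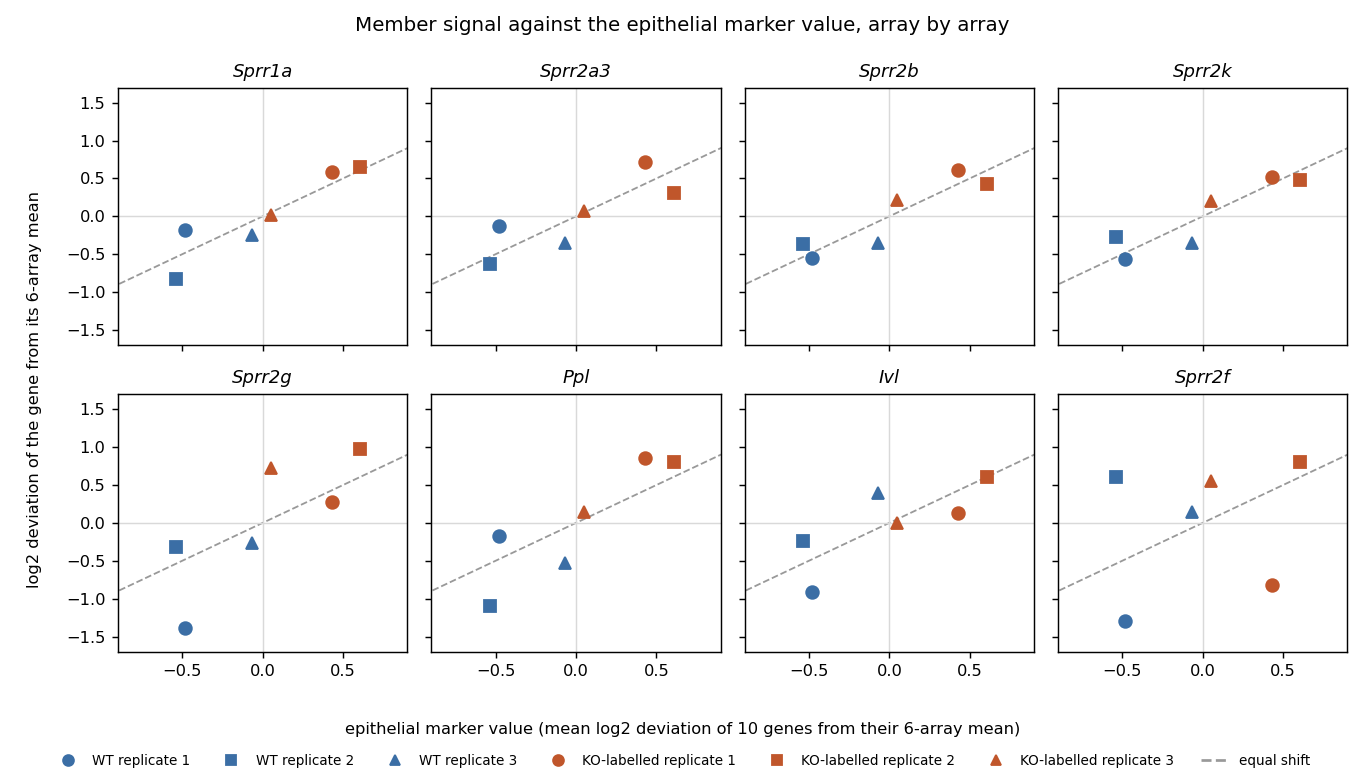
Log2 deviation from the 6-array mean for 8 members (vertical axis) against the epithelial marker value of the same array (horizontal axis); the dashed line marks an equal shift of both. Sprr1a, Sprr2a3, Sprr2b and Sprr2k lie near the line on most arrays, Sprr2g and Ppl spread more widely than the markers, and Sprr2f does not follow it on replicate 1 of the KO-labelled group or replicate 2 of WT.

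Markers of other cell types differed in mean too, none with an adjusted p under 0.05 in limma. At an unadjusted p under 0.05 in limma, 4.35% of all genes were higher and 4.71% lower. Without overlap between groups, 7.28% were higher and 8.13% lower. All 8 macrophage markers had lower means in the KO-labelled group, 6 of them with an unadjusted p under 0.05, with a median of -0.54. The 7 smooth muscle markers were higher in mean with a median of 0.68, none of them with an unadjusted p under 0.05. Of 4 mesothelium markers 4 were higher in mean, 2 with an unadjusted p under 0.05, with a median of 0.75, and Msln differed by 1.48 ± 0.35 (SE) without overlap. Of 8 neutrophil markers 4 were lower in mean, 0 with an unadjusted p under 0.05. The other 4 (Ngp, Camp, Ltf and Ly6g) were higher without overlap, each with an unadjusted p under 0.05, and Ngp, a neutrophil granule protein, differed by 3.17 ± 0.52 (SE; limma, adjusted p = 0.398). Ngp was well above background on 3 arrays only and passed the filter through the KO-labelled group. Its WT values thus lay at background, and its difference and lack of overlap are not separate from the filter. For the neutrophil list WT replicate 1 had the lowest value, -1.0, against -0.25 to 0.54 elsewhere. WT replicate 2, the array with kidney transcripts, was the lowest WT array for Sprr1a, Sprr2a3, Ppl, Evpl and Lor. Without it Sprr1a differed by 0.63, Sprr2a3 by 0.61, Sprr2b by 0.87, Sprr2k by 0.85, Sprr2g by 1.48, Sprr2j-ps by 1.09 and Ppl by 0.95. The part of these cell types and libraries in the member differences was not tested.

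The neighbouring pathways were read from 6 gene lists, and in each of them 0 genes had an adjusted p under 0.05 in limma. Beside the counts of these lists stand the shares of all genes. They were 4.35% higher and 4.71% lower at an unadjusted p under 0.05 in limma, and 7.28% and 8.13% without overlap. Of 10 tested squamous and epidermal keratins, 7 were higher and 3 lower, 2 and 0 at an unadjusted p under 0.05 (median 0.35). Krt1 and Krt2, keratins of the upper epidermis, differed by -0.28 ± 0.19 and -0.20 ± 0.28 (SE). Krt6a, a keratin of activated epithelium, had values of -0.33, 2.97 and 3.60 in WT and of 2.45, 3.82 and 2.88 in KO-labelled ureters, so that WT replicate 1 stood alone and the groups overlapped. The keratin list value was -0.86 on WT replicate 1 and between 0.00 and 0.51 on the other 5 arrays, and the same array was the lowest of the 6 for Ivl, Tgm1 and 5 of the 10 tested Sprr genes.

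Of the S100 and fused S100 genes of the complex, 9 were tested and 9 were higher, 1 at an unadjusted p under 0.05, with a median of 0.34. Tchh, which encodes trichohyalin, differed by 0.34 ± 0.28, S100a3 by 0.58 ± 0.24 and S100a6 by 0.37 ± 0.11 (SE), the last 2 without overlap between groups. Flg2, Hrnr, Rptn and Tchhl1, fused S100 genes of the epidermis, were at background on all arrays. Of 10 desmosome genes, the partners of the plakins, 10 were higher and 6 had an unadjusted p under 0.05, with a median of 0.81. Dsc2 and Dsg3 were well above background on 4 and 5 arrays, so each passed the filter through 1 group only. Dsc2 is among the 6 and was lower on every WT array, so its difference may not be separate from the filter. Dsp, which encodes desmoplakin, differed by 0.87 ± 0.24 and Jup, which encodes plakoglobin, by 0.53 ± 0.17, both without overlap, and Pkp1, which encodes plakophilin 1, by 0.88 ± 0.55 with overlap (SE).

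Of 22 transcription factors of squamous differentiation, 15 were higher and 7 lower, 8 and 2 at an unadjusted p under 0.05, with a median of 0.37. Klf4 differed by 0.08 ± 0.23, Klf5 by 0.53 ± 0.18 without overlap, and Grhl1 by 0.76 ± 0.32 (SE; limma, adjusted p from 0.488 to 0.937). Of 11 genes of the lipid envelope, the ceramide layer bound to the outside, 9 were higher and 2 lower, 3 and 0 at an unadjusted p under 0.05, with a median of 0.10. Aloxe3, an epidermal lipoxygenase, differed by 0.72 ± 0.23 without overlap, Cers3, a ceramide synthase, by 1.09 ± 0.37, and Elovl1, a fatty acid elongase, by 0.06 ± 0.14 (SE). Aloxe3 was well above background on 5 arrays and Lipk, also among the higher genes, on 4, so each passed the filter through 1 group only. Of 10 tested genes for other cross-linking enzymes, proteases and inhibitors, 5 were higher and 5 lower, and the median was 0.04. Tgm2, the tissue transglutaminase, differed by -0.14 ± 0.35, Tgm5 by 0.58 ± 0.40 and Casp14, a caspase of cornification, by 0.59 ± 0.47 (SE). Csta1, Spink5 and 6 kallikrein genes of this list were at background on all arrays.

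When each array was weighted by its estimated precision, limma called 498 genes, among them Krtdap, Ppl, Sprr2a3, Sprr2b and Sprr2k, with adjusted p-values between 0.0402 and 0.0495. The weights differed 30.2-fold between the most and the least weighted array, WT replicates 3 and 1. With weights the differences of Sprr2b and Sprr2k were 0.85 and 0.80, close to those without.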

How the data were processed

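Ureter RNA (0.05 µg a sample, 3 WT and 3 KO-labelled) was labelled with Cy3 and hybridised to 1-colour Agilent arrays, per the labels' protocols. The deposited intensities are Agilent Feature Extraction 12.0.3.1 processed signals, which per the file headers are background-subtracted and were not scaled between arrays. Any scaling across arrays by the authors was not given in the sources used here. Outlier spots (84 to 142 an array) were left out, spots of a probe averaged, and log2 signals set relative to the 75th percentile of each array. Genes were tested by their brightest probe among those well above background on all 3 arrays of either group, in limma 3.58.1 (R 4.3.3) with Benjamini-Hochberg adjustment over 22260 genes and a threshold of 0.05. All arrays shared 1 slide and 1 scan time. Symbols were checked against RefSeq (GRCm38.p6), in which 35405 probes matched and 21200 kept the file's name. Probe positions are mm9, per the file headers. The procedure was tested on simulated data. The array number limits precision. All tested members are described; from pathway lists the first 3 tested genes are named, and other genes were chosen after their values were seen. The members and lists were chosen with earlier results of these data known. Alternatives covered background correction, scaling, probe choice, filters, array weights, sex, the replicate number as a block and leaving out arrays.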

Additional observations from a re-analysis of the deposited data

How the results depend on the processing

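The 7 members without overlap between groups kept their direction in every alternative run. For runs that only left out or reweighted arrays this was fixed in advance, because every KO-labelled value lay above every WT value. The count of genes past the threshold in limma was 0 and became 498 with array weights and 1 with the replicate number as a block, and 0 to 1 when single arrays were left out. For members the count of 0 became 5 with array weights and was 0 with the block and with any single array left out. The replicate numbers are not stated to pair the samples. Same-numbered samples correlated at 0.53, -0.15 and -0.03 in their deviations from the group means. Deviations from a mean of 3 arrays depend on each other, so these values cannot decide whether samples were paired. Of the member values under alternatives, 421 kept direction and side of the threshold, 40 changed sign and 5 passed the threshold. The cause of the changes of sign was not tested. With normexp, Cnfn was -0.0077, Lce3d -0.0063, Sprr2e 0.077 and Tgm1 -0.012. With median centring, Cdsn was 0.014 and Sprr2a2 0.019, and with all probes of a gene averaged Sbsn was 0.033. With array weights, Cdsn was 0.67, Flg 0.041, Ivl -0.052, Lce1l 0.049, Sprr2a2 0.027, Sprr2f -0.27 and Tgm1 -0.67. With sex as a covariate, Cdsn was 0.32, Sprr2a2 0.0094 and Tgm1 -0.14. KO-labelled replicate 3 was the only female, so this run gave the same differences as leaving that array out. An effect of sex cannot be told apart from that sample. Without WT replicate 2 and KO-labelled replicate 3 together, Cdsn was 0.30, Lce3d -0.050 and Sprr2a2 0.041. Without replicate 1 of both groups, an alternative chosen after seeing the data, Cdsn was 0.20, Lce1l 0.13, Sprr2e 0.48 and Tgm1 -0.47. Leaving out single arrays gave ranges of -0.33 to 0.32 for Cdsn, -0.31 to 0.44 for Cnfn, -0.011 to 0.097 for Lce1a2, -0.023 to 0.17 for Lce1j, -0.18 to 0.095 for Lce1l, -0.084 to 0.23 for Lce3d, -0.17 to 0.73 for Scel, -0.025 to 0.023 for Sprr2a2, -2.79 to 0.33 for Sprr2d, -1.51 to 1.10 for Sprr2e, -0.19 to 0.86 for Sprr2f and -0.61 to 0.51 for Tgm1. Sprr2d and Sprr2e were not tested when a probe had to be well above background on 6 arrays. Among all genes 55.2% were higher with median centring and 44.0% without the filter.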

Other observations

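Krt16, Krt14, Dsg3 and S100a8, from the marker and pathway lists, were chosen because WT replicate 1 was their lowest array, so that this order is no result. Krt16, a keratin of activated epidermis, had log2 values of -1.44, 0.24 and 1.43 in WT replicates 1, 2 and 3 and of -0.31, 1.35 and 0.06 in KO-labelled replicates 1, 2 and 3. Krt14, the keratin of basal cells, had values of 2.70, 4.19 and 4.95 in WT and of 4.78, 5.78 and 5.18 in KO-labelled ureters. Dsg3, the desmosomal cadherin of basal squamous cells, had values of -6.62, -3.67 and -2.80 in WT and of -2.87, -1.83 and -3.04 in KO-labelled ureters. It was well above background on only 5 arrays. S100a8, a calcium-binding protein of neutrophils and activated keratinocytes, had values of 3.07, 5.68 and 4.49 in WT and of 3.40, 4.47 and 5.70 in KO-labelled ureters, with KO-labelled replicate 1 close to WT replicate 1. Ovol1, a transcription factor of terminal differentiation, was also chosen after its values were seen. It was separated by more than the spread within a group, with values of -4.62, -4.69 and -4.81 in WT and of -3.88, -3.97 and -3.42 in KO-labelled ureters (difference 0.95 ± 0.17 SE, limma adjusted p = 0.398). Of the 22 factors in its list, 15 were higher and 7 lower, 6 and 1 without overlap, beside 7.28% and 8.13% of all genes. The lower one without overlap was Trp63, at -0.32 ± 0.10, and Maf differed by -0.56 ± 0.21 with overlap (SE).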
